A study of Mus musculus with 26 samples.

Results

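The 10 genes described here are immediate-early and stress-inducible genes: Fos, Fosb, Jun, Junb and Atf3, which encode subunits of the AP-1 family of transcription factors, the early-response genes Egr1 and Ier2, the phosphatase gene Dusp1, and the heat shock genes Hspb1 and Hspa1b. They were picked by name from the gene table, by matching each Ensembl ID to its GENCODE M21 symbol; 10 of 55471 genes carried these symbols, and all 10 were among the 18412 genes with enough reads to test. RNA-seq counts came from KH2 mouse embryonic stem cells (ESC), a line built for inducible transgenes, that were taken through differentiation with retinoic acid and harvested on days 0, 2 and 4. Wild-type cells (WT) were compared with 2 lines labelled as knock-outs of NAP1L1, a histone chaperone: alpha-KO, whose genotype is given as a knock-out of NAP1L1 alpha, and full-KO, given as a NAP1L1 knock-out. Each genotype had 3 libraries per day, except full-KO on day 0 with 2, giving 26 libraries in 9 groups. All alpha-KO libraries are named C6 and all full-KO libraries C20, so each may come from a single clone, and clone and genotype cannot be told apart.

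Immediate-early genes are switched on by signals that reach the nucleus through MAP kinases, without new protein synthesis, and their transcripts are short-lived. Fos and Jun family proteins pair to form AP-1, Egr1 is a zinc finger factor driven by serum response factor and its ETS partners, and Dusp1 dephosphorylates MAP kinases and so limits the signal. The same genes, with heat shock genes under the control of HSF1, also respond to handling such as trypsin, medium change or a shift in temperature, so their level in a harvested culture can vary between dishes.

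The libraries held 13537267 to 20569706 counts, of which 1.08% to 2.04% were mitochondrial. Nap1l1 RNA, the targeted transcript, stood at 997 to 1070 CPM (counts scaled to library size) in WT on day 0, 569 to 621 in alpha-KO and 397 to 401 in full-KO, and it was also lowest in full-KO on days 2 and 4; which part of the gene was altered is not given, so reads from the remaining part do not measure protein. The 8 embryonic stem cell markers summed to 3482 to 3622 CPM in WT on day 0 and to 71.9 to 82.7 on day 4, so the labelled cell type was met by its markers on day 0. The 15 fibroblast and smooth muscle markers were also present on day 0, at 5595 to 6928 CPM in sum in WT, 5051 to 6413 in alpha-KO and 3542 to 3772 in full-KO. One by one they differed more than the sums. In alpha-KO 13 were lower than WT and 1, Fn1, higher at an adjusted p under 0.05 (median log2 fold change -0.72). In full-KO 13 were lower and 0 higher (median -2.63). Of all genes tested, 20.9% were lower and 17.7% higher in alpha-KO, and 17.7% and 16.2% in full-KO. No replicates agreed within counting noise.

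Promoter sequences are shown for genes whose values moved together and for some that took another course; their part in the differences was not tested. Windows of 250 bases before the start were in RefSeq (GRCm38.p6) for 8 of the 10 genes, Egr1 and Ier2 aside. Of these, 5 are printed here 5′ to 3′ on the gene's strand. Fos, Junb and Dusp1 were lower in both knockout lines on days 2 and 4. Jun was lower there too, but stood higher on each later day in all genotypes. Hspa1b kept its day 2 peak in all genotypes. Capitals mark motif matches on either strand: the cAMP response element core TGACGT and the full element TGACGTCA that contains it, the TATA box TATAAA, the CCAAT box (ATTGG on the opposite strand) and the heat shock element core GAANNTTC. The windows lie at chr12:85473640-85473889 (Fos, plus strand), chr8:84978749-84978998 (Junb, minus), chr17:26508473-26508722 (Dusp1, minus), chr4:95052223-95052472 (Jun, minus) and chr17:34959239-34959488 (Hspa1b, minus).
Fos: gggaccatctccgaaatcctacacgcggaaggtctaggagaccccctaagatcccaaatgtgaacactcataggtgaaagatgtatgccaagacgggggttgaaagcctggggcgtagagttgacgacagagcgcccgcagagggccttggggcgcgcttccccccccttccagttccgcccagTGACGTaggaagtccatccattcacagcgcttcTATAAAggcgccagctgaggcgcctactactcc
Junb: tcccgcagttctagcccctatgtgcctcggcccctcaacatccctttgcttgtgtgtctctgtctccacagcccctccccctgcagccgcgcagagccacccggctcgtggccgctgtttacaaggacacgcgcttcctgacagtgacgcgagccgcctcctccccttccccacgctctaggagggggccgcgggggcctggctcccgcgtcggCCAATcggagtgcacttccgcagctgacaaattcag
Dusp1: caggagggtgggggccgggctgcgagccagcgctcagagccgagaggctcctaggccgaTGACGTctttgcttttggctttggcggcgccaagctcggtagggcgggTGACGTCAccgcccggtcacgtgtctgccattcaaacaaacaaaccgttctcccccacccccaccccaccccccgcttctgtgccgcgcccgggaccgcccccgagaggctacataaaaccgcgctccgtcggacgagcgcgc
Jun: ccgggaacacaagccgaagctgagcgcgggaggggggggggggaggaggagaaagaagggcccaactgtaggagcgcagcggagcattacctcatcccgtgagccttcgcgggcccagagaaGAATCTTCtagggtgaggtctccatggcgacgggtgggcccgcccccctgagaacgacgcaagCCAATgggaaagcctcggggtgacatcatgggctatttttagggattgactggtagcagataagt
Hspa1b: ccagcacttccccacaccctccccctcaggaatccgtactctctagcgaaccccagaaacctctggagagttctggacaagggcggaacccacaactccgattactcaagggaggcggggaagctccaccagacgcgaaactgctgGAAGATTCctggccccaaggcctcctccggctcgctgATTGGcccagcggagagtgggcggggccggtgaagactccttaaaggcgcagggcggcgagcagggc
The element core TGACGT lay in 3 of the 8 windows (Fos, 66 bases before the start; Atf3, 8 bases before; Dusp1, 3 matches, one pair of them overlapping in the full element 143 bases before), against 6.47% of 32851 mouse windows of the same length. The full element occurred in the Dusp1 window alone among the 8 and in 1.55% of all windows. The heat shock core lay in the windows of Jun, Hspb1 (2 matches) and Hspa1b, against 6.69% of all windows, and the CCAAT box in those of Jun, Junb and Hspa1b, against 33.8%. TATAAA was found in the Fos window, as in 12.4% of all windows. Neither the AP-1 site TGANTCA (6.75% of all windows) nor the CArG box bound by serum response factor (1.47%) was found in the 8 windows. A match describes these letters only. Sites beyond the 250 bases, or spelled otherwise, were not searched for, so no match does not mean that a promoter lacks such a site.

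In WT cells most of these genes rose during differentiation, at different times. Jun and Atf3 rose by day 2 and again by day 4, Fos, Junb, Dusp1 and Hspb1 rose mainly between days 2 and 4, Ier2 fell throughout, Egr1 dipped on day 2, and Hspa1b peaked on day 2. From day 0 to day 2, 6 of the 10 rose and 2 fell, where 70.7% of all genes were called (36.7% higher, 34% lower) at an adjusted p under 0.05, the threshold used throughout. From day 0 to day 4, 7 rose and 1 fell (77.4% of all genes called, 40.7% higher and 36.7% lower), and from day 2 to day 4, 8 rose and 2 fell (59.4% called, 30.2% higher and 29.2% lower). The median log2 fold change of the 10 was 0.18, 1.10 and 0.82 in these comparisons, beside 0.06, 0.10 and 0.00 over all genes tested. The rises of Junb, Fosb and Hspb1 by day 2 were small or scattered (0.21, 0.84 and 0.15) and lost their call without one or another WT library, and the Fosb rise from day 2 to day 4 was not called by DESeq2 (adjusted p = 0.129).

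**Figure D1:**
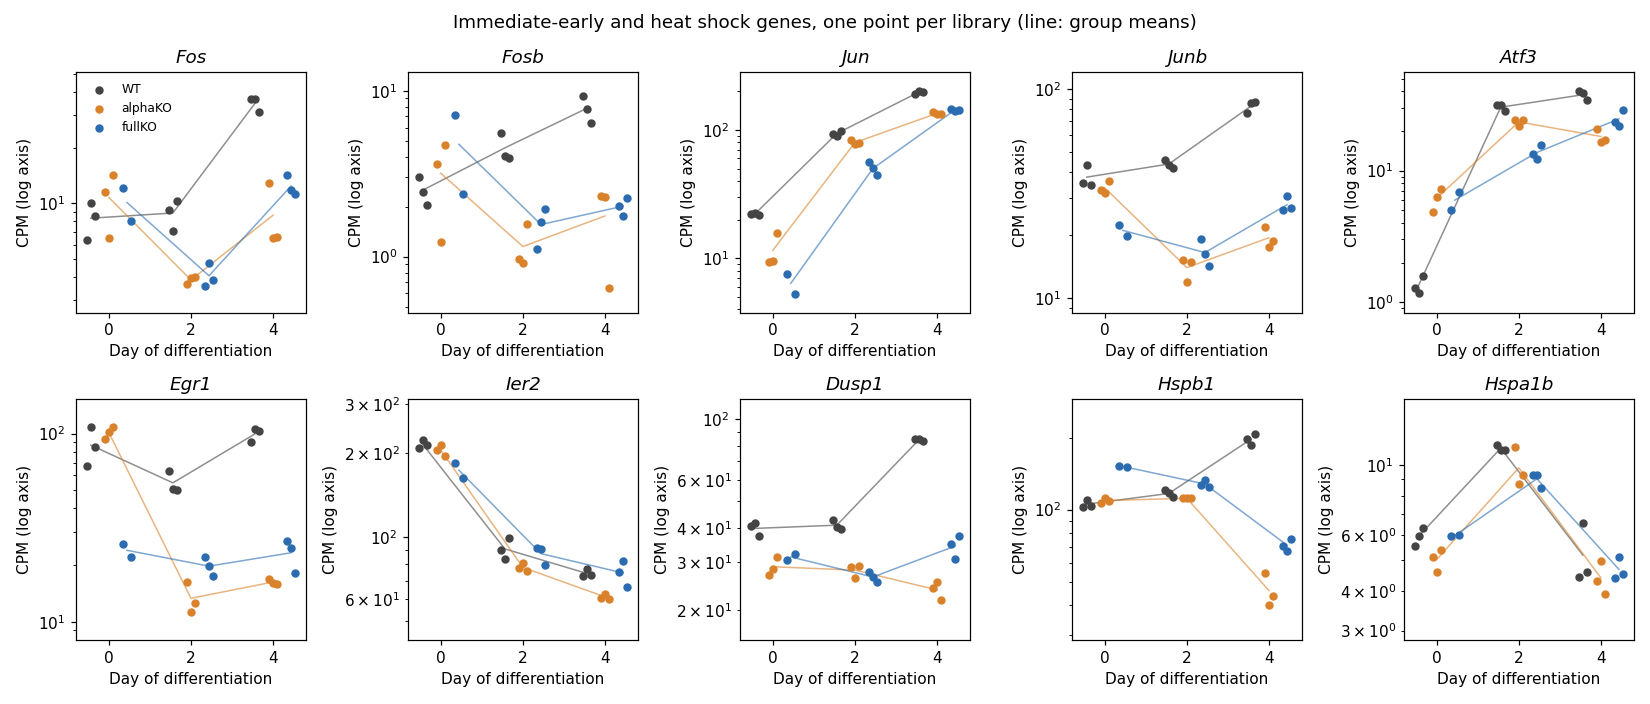
Normalised counts (CPM, log axis) of the 10 genes on days 0, 2 and 4. Each point is a library of WT (grey), alpha-KO (orange) or full-KO (blue), and lines join group means. On day 4 the WT points for Egr1 (89.7 to 105.5 CPM), Junb, Dusp1, Fos and Hspb1 lie above all knockout points, while those of Hspa1b overlap.

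Per kilobase of exon, Ier2 was the most abundant of the 10 in WT on day 0, at 141 ± 4.76 RPKM (SD, n = 3), followed by Hspb1 (102), Egr1 (19.4 ± 4.68), Junb (16.5 ± 2.05), Dusp1 (12), Jun (6.92), Fos (3.54), Hspa1b (2.12), Atf3 (0.625) and Fosb (0.403). Only Egr1 and Junb overlapped their neighbour in this order. On day 4 Hspb1 led at 191 RPKM, Jun had moved to second place at 61.8 and Ier2 stood at 48.8, ahead of Junb (36), Dusp1 (25.4), Egr1 (22.2), Atf3 (17.5), Fos (14.8), Hspa1b (1.85) and Fosb (1.26).

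In the knockout lines most of these genes were lower than in WT after day 0. Against WT on day 2, 8 of 10 were lower in alpha-KO and none higher, where 20.3% of all genes were called lower and 19.9% higher (40.2% called in all), and 8 of 10 were lower in full-KO, where 23.8% of all genes were lower (47.6% in all). On day 4, 9 of 10 were lower in alpha-KO (24% of all genes lower, 28.7% higher, 52.7% called in all) and 8 of 10 in full-KO (24.5%, 25.1% and 49.6%). Before differentiation the picture was mixed: on day 0, 1 was higher and 2 lower in alpha-KO (38.6% of all genes called, 17.7% higher and 20.9% lower), and 3 were higher and 5 lower in full-KO (33.9% called, 16.2% higher and 17.7% lower). The median log2 fold change of the 10 in alpha-KO was -0.01, -0.46 and -1.92 on days 0, 2 and 4, and in full-KO -0.15, -1.02 and -1.38, while the median over all genes lay between -0.03 and 0.06. Both knockout lines were compared with the same WT libraries. In bulk RNA, fewer cells expressing a gene and less RNA per cell cannot be told apart.

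**Figure D2:**
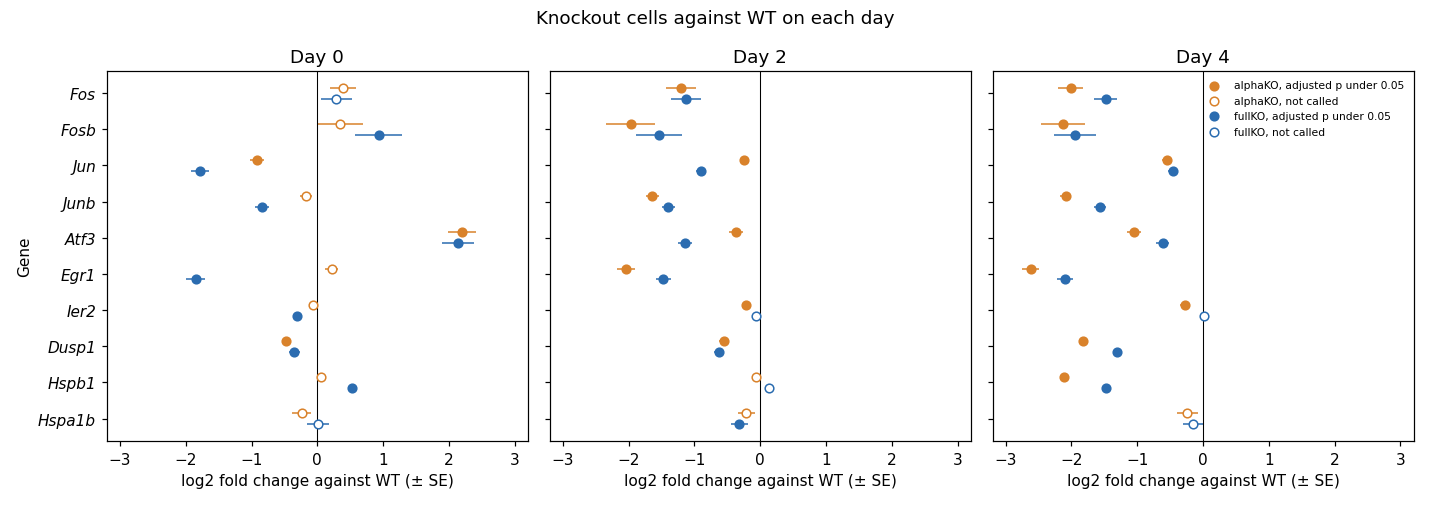
Log2 fold change of each gene in alpha-KO (orange) and full-KO (blue) against WT on days 0, 2 and 4, with SE as bars. Filled points have an adjusted p under 0.05 and open points do not. The points move to the left from day 0 to day 4 for most genes, to -2.62 for Egr1 in alpha-KO, while Jun moves from -1.78 to -0.46 in full-KO and Hspa1b stays near 0.

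The stem cell sum and the fibroblast and smooth muscle sum also differed from WT in both lines on days 2 and 4, without overlap. In full-KO, the neuron sum overlapped WT on day 2 and the primitive endoderm sum on day 4. The 15 fibroblast and smooth muscle markers summed to 2570 to 2710 CPM in WT on day 2, against 2195 to 2307 in alpha-KO and 1543 to 1606 in full-KO, and to 6823 to 7101, 2885 to 3678 and 3899 to 4318 on day 4. On day 2, 11 of the 15 were lower and 2 higher in alpha-KO, and 13 and 1 in full-KO. Their median log2 fold changes in alpha-KO and full-KO were -1.42 and -2.44 on day 2 and -0.96 and -0.82 on day 4. On day 4, 11 of the 15 were lower in alpha-KO and 10 in full-KO, with 1 higher in each; Acta2, smooth muscle actin, stood at 2680 CPM in WT, 501 in alpha-KO and 765 in full-KO. Lumican (Lum), a fibroblast marker, was near 0 in all genotypes on day 4 (0.298, 0.50 and 0.51 CPM), and decorin (Dcn) stood at 24.9, 29.3 and 21.1 CPM. The stem cell markers summed to 387 to 401 CPM in WT, 635 to 670 in alpha-KO and 1059 to 1181 in full-KO on day 2, and to 71.9 to 82.7, 273 to 291 and 403 to 424 on day 4. The 12 primitive endoderm markers summed to 1442 to 1486 CPM in WT, 2247 to 2481 in alpha-KO and 1212 to 1341 in full-KO on day 2, and to 3622 to 3817, 4628 to 5141 and 3296 to 3887 on day 4. Of these, 9 were higher and 1 lower in alpha-KO on day 2 and 9 and 0 on day 4, against 7 and 4, then 7 and 2, in full-KO. The 12 neuron markers were scarcer, at 187.5 to 201.6 CPM in sum in WT, 154 to 158 in alpha-KO and 179 to 203 in full-KO on day 2 and 128 to 135, 150 to 196 and 117 to 118 on day 4. In alpha-KO 2 of them were higher and 5 lower on day 2 and 7 and 2 on day 4, and in full-KO 2 and 2, then 4 and 3. The part of these marker shifts in the differences of the 10 genes was not tested.

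Fos (chr12:85473890-85477273, plus strand), the inducible partner of Jun in AP-1, rose 4.18-fold in WT by day 4 and reached at most 14.3 CPM in a knockout library. In WT its level was 6.37, 10.1 and 8.51 CPM on day 0, 9.23, 7.11 and 10.3 on day 2 and 36.8, 36.6 and 31.1 on day 4. The alpha-KO libraries gave 11.6, 6.52 and 14.3 CPM, then 3.65, 3.93 and 3.99, then 12.9, 6.52 and 6.56. Those of full-KO gave 12.2 and 8.06 CPM, then 3.60, 4.76 and 3.84, then 14.2, 11.8 and 11.3. The groups overlapped on day 0 and were separate from WT on days 2 and 4. Fos was lower than WT by a log2 fold change of -1.20 ± 0.23 (SE) on day 2 and -2.01 ± 0.19 on day 4 in alpha-KO, and -1.13 ± 0.23 and -1.48 ± 0.18 in full-KO (adjusted p from 7.25e-13 to 5.58e-05). On day 0 it was 0.39 and 0.29, not called in either line.

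Fosb (chr7:19302696-19310051, minus strand), a Fos relative, was the scarcest and most scattered of the set. WT libraries held 3.04, 2.46 and 2.05 CPM on day 0, 5.57, 4.06 and 3.94 on day 2 and 9.28, 7.80 and 6.43 on day 4. In alpha-KO they held 3.60, 1.23 and 4.70, then 0.970, 0.916 and 1.56, then 2.33, 2.30 and 0.643. In full-KO they held 7.14 and 2.38, then 1.11, 1.62 and 1.95, then 2.03, 1.76 and 2.26. The lowest of these values rests on 10 reads. Fosb was separate from WT on days 2 and 4, by -1.97 ± 0.37 and -2.13 ± 0.33 in alpha-KO and -1.54 ± 0.35 and -1.95 ± 0.32 in full-KO. Its call as higher in full-KO on day 0 (0.93 ± 0.36, adjusted p = 0.041) came from groups that overlap and rested on replicate 1, without which the log2 fold change was -0.11 (adjusted p = 0.905). DESeq2 did not call it either (adjusted p = 0.173).

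Jun (chr4:95049034-95052222, minus strand) encodes the partner of Fos. It took a different course: it was lowest in the knockout lines before differentiation and stood higher on each later day in all genotypes. WT libraries stood at 22, 22.5 and 21.7 CPM on day 0, 92.9, 89.6 and 98.8 on day 2 and 190.4, 202 and 198 on day 4. In alpha-KO the values were 9.41, 9.57 and 15.6, then 82.7, 77.8 and 78.5, then 137, 134 and 133. In full-KO they were 7.50 and 5.28, then 55.8, 50.2 and 44.2, then 144, 142 and 144. WT was the highest group on each day, without overlap. The difference from WT was -0.92 ± 0.11, -0.24 ± 0.07 and -0.55 ± 0.07 in alpha-KO on days 0, 2 and 4, and narrowed in full-KO from -1.78 ± 0.14 to -0.90 ± 0.08 and -0.46 ± 0.07. In mean CPM, Jun went from 22.1 on day 0 to 197 on day 4 in WT, 11.5 to 135 in alpha-KO and 6.39 to 143 in full-KO. On the log2 scale, from these lower starting levels, its rise was larger in the knockout lines than in WT. The excess was 0.68 ± 0.13 to day 2 and 0.37 ± 0.13 to day 4 in alpha-KO, and 0.87 ± 0.17 and 1.31 ± 0.16 in full-KO. The alpha-KO value at day 4 depended on day 0 replicate 3 (15.6 CPM): it was 0.66 without that library, and 0.24 and 0.25, no longer called, without replicates 1 and 2. DESeq2 did not call the alpha-KO difference on day 2 (adjusted p = 0.0574), and neither did the fit without WT day 2 replicate 3 (-0.20, adjusted p = 0.0551). A Junos antisense gene overlaps Jun by 689 bases and did not exceed 1.74 CPM in a library.

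Junb (chr8:84974484-84978718, minus strand), a Jun relative that gives weaker AP-1, rose 2.18-fold in WT by day 4, while the alpha-KO libraries of days 2 and 4 lay below those of day 0. WT libraries gave 35.5, 43.4 and 34.9 CPM on day 0, 46, 43.5 and 41.9 on day 2 and 76.4, 85.7 and 86.2 on day 4. Those of alpha-KO gave 32.9, 31.9 and 36.4, then 15.2, 12 and 14.9, then 22, 17.6 and 18.8. Those of full-KO gave 22.3 and 19.9, then 19.2, 16.2 and 14.3, then 26.3, 30.8 and 26.9. Full-KO was already separate from WT on day 0 (-0.84 ± 0.11, adjusted p = 2.67e-08), while alpha-KO overlapped it (-0.17 ± 0.09, adjusted p = 0.152). Both lines were separate on day 2 (-1.64 ± 0.10 and -1.40 ± 0.10) and day 4 (-2.09 ± 0.09 and -1.56 ± 0.09). Prdx2 overlaps Junb by 351 bases on the opposite strand at 168 to 331 CPM; on day 4 it was higher than WT in alpha-KO (0.13) and lower in full-KO (-0.23), and how reads in the overlap were assigned is not given in the sources used here.

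Atf3 (chr1:191170296-191218039, minus strand), a stress-induced factor that binds cAMP response elements and AP-1 partners, was nearly silent in WT on day 0 and was the most strongly induced of the set. Its WT values were 1.29, 1.17 and 1.58 CPM on day 0, 31.3, 31.5 and 28.2 on day 2 and 40.2, 38.6 and 34.3 on day 4. In alpha-KO they were 4.88, 6.34 and 7.29, then 24.4, 21.8 and 24.1, then 20.7, 16.6 and 17.2. In full-KO they were 5 and 6.93, then 13.3, 12.3 and 15.6, then 23.4, 21.9 and 28.9. All 5 knockout libraries of day 0 lay above the 3 WT libraries, and all knockout libraries of days 2 and 4 lay below the WT libraries of that day. The log2 fold change was 2.20 ± 0.21 in alpha-KO and 2.14 ± 0.24 in full-KO on day 0, -0.37 ± 0.11 and -1.14 ± 0.11 on day 2, and -1.05 ± 0.11 and -0.61 ± 0.10 on day 4. Of the 10 genes, Atf3 had the largest differences from WT in the change from day 0 in 3 of the 4 comparisons, up to -3.28 ± 0.26 for full-KO at day 2, where WT rose 22.5-fold.

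Egr1 (chr18:34859823-34864984, plus strand), a zinc finger factor and a classic readout of ERK signalling, showed the largest differences from WT on day 4. In WT it stood at 67.1, 109 and 84.4 CPM on day 0, 63, 51 and 50.2 on day 2 and 89.7, 105.5 and 104 on day 4. The alpha-KO libraries held 93.4, 102 and 109, then 16.2, 11.2 and 12.6, then 17, 16 and 15.8. The full-KO libraries held 25.9 and 22.1, then 22, 19.7 and 17.5, then 26.8, 24.8 and 18.2. Alpha-KO overlapped WT on day 0 (0.22 ± 0.10, adjusted p = 0.0873) and dropped between days 0 and 2, whereas full-KO was low on every day. Against WT, Egr1 was 4.12-fold lower in alpha-KO on day 2 and 6.14-fold lower on day 4 (log2 fold changes -2.04 ± 0.13 and -2.62 ± 0.13, adjusted p = 3.62e-17 and 3.63e-22). In full-KO it was 3.61-fold, 2.77-fold and 4.29-fold lower on days 0, 2 and 4 (-1.85 ± 0.14, -1.47 ± 0.12 and -2.10 ± 0.12). The change from day 0 differed from WT by -2.27 ± 0.17 and -2.84 ± 0.16 in alpha-KO, and by 0.38 ± 0.19 and -0.25 ± 0.18, neither called, in full-KO. On day 0 the fibroblast and smooth muscle sum was also lowest in full-KO, where 13 of the 15 markers were lower than WT and 0 higher (median -2.63). The part of this in the day 0 differences of Egr1, Jun, Junb and the other genes of the set was not tested.

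Ier2 (chr8:84661331-84662852, minus strand), an early-response nuclear protein, was lower after day 0 in all genotypes. Its WT values ran from 209 to 223 CPM on day 0, 83.7 to 99.1 on day 2 and 72.4 to 76.7 on day 4. The range in alpha-KO was 196 to 214, 75.5 to 81.2 and 60.1 to 62.6, and in full-KO 164 to 184, 79.9 to 91.2 and 66.3 to 82.4. Its differences from WT were small: -0.31 ± 0.06 in full-KO on day 0, and -0.22 ± 0.06 and -0.28 ± 0.07 in alpha-KO on days 2 and 4. Full-KO was not called on day 2 (95% interval -0.18 to 0.07) or day 4 (-0.12 to 0.14).

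Dusp1 (chr17:26505590-26562128, minus strand), the feedback phosphatase, rose 2.06-fold in WT between days 2 and 4, while no knockout library exceeded 37.4 CPM. WT libraries held 40.4, 41.5 and 37.4 CPM on day 0, 42.9, 40.1 and 39.6 on day 2 and 84.6, 84.3 and 83.2 on day 4. In alpha-KO the values were 26.9, 28.3 and 31.1, then 28.6, 26.3 and 29, then 24.1, 25.2 and 21.7. In full-KO they were 30.3 and 32.2, then 27.5, 26.4 and 25.3, then 34.7, 30.6 and 37.4. Every knockout library lay below every WT library of its day. The difference from WT was -0.47 ± 0.07, -0.55 ± 0.07 and -1.82 ± 0.07 in alpha-KO on days 0, 2 and 4, and -0.35 ± 0.08, -0.63 ± 0.07 and -1.30 ± 0.07 in full-KO. Ergic1, on the opposite strand, overlaps the Dusp1 span, introns included, by 640 bases and was lower on day 4 too (-0.44 and -0.70). Genes annotated on the same strand also overlap that span, by up to 1853 bases, and their counts were not examined.

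Hspb1 (chr5:135887919-135889563, plus strand), which encodes the small heat shock protein HSP27 (HSP25 in mouse), was called against WT on day 4 in alpha-KO and on days 0 and 4 in full-KO. WT libraries stood at 103, 109.6 and 104 CPM on day 0, 121, 117 and 113 on day 2 and 197, 187 and 207 on day 4. Those of alpha-KO stood at 107, 112 and 109, then 111.6, 111.7 and 111.5, then 54.3, 39.9 and 43.4. Those of full-KO stood at 153 and 151, then 127, 133 and 124, then 70.5, 67 and 75.6. Full-KO was thus above WT on day 0 (0.52 ± 0.06, adjusted p = 4.87e-09) and below it on day 4 (-1.47 ± 0.06, adjusted p = 8.55e-25), and alpha-KO was 4.31-fold lower on day 4 (-2.11 ± 0.06, adjusted p = 2.21e-29). On day 2 neither was called (-0.07 ± 0.06 and 0.13 ± 0.06). Of 50-base stretches of Hspb1 transcripts, 48.8% also occur in the pseudogene Hsp25-ps1, which was counted at no more than 0.179 CPM.

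Hspa1b (chr17:34956436-34959238, minus strand), an inducible HSP70 gene and the usual sign of a heat shock response, was low throughout and peaked on day 2 in every genotype. WT libraries held 5.55 to 6.34 CPM on day 0, 11.2 to 11.5 on day 2 and 4.42 to 6.55 on day 4. Those of alpha-KO held 4.58 to 5.38, 8.73 to 11.4 and 3.92 to 4.99, and those of full-KO 5.95 to 6.01, 8.48 to 9.32 and 4.41 to 5.11. Against WT it was called only in full-KO on day 2 (-0.32 ± 0.13, adjusted p = 0.0417), a call lost when any 1 of the 6 libraries compared was left out and when no gene was filtered out. The intervals elsewhere were wide: -0.57 to 0.09 in alpha-KO and -0.47 to 0.17 in full-KO on day 4. Hspa1b shares 62.3% of its 50-base stretches with Hspa1a, and their promoter windows differ at 3 of 250 bases. Shared reads may have been split between them or left uncounted, so the level of Hspa1b and the sum may be too low. Their sum was 14.8 CPM in WT on day 2, 11.9 in alpha-KO and 11.2 in full-KO, against 6.49, 5.73 and 5.75 on day 4. Hspa1a was called lower than WT on day 2 in alpha-KO (-0.75 ± 0.30, adjusted p = 0.0381) and full-KO (-0.71 ± 0.29, adjusted p = 0.0406). It was not called on days 0 and 4.

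The 2 knockout lines also differed from each other on each day. On day 0 alpha-KO was higher than full-KO for Egr1 (2.08 ± 0.14), Jun (0.86 ± 0.16), Junb (0.67 ± 0.11) and Ier2 (0.24 ± 0.06) and lower for Hspb1 (-0.48 ± 0.06), where 29% of all genes were called (14.4% higher, 14.6% lower). Leaving out alpha-KO replicate 3 lowered the Jun value to 0.56, still called, and the Ier2 call was lost without full-KO replicate 2 (0.16). On day 2, 2 were higher in alpha-KO (Jun, 0.67 ± 0.08, and Atf3, 0.77 ± 0.11) and 3 lower (25.3% of all genes called, 13% higher and 12.3% lower), among them Egr1 (-0.57 ± 0.15). On day 4, 7 were lower in alpha-KO and none higher (15.4% of all genes lower, 17.4% higher, 32.7% called), with Hspb1 at -0.63 ± 0.07 and Dusp1 at -0.53 ± 0.08. Fos was the least firm of the 7 (-0.53 ± 0.20, adjusted p = 0.0352, but 0.155 by DESeq2), with a value between -0.92, without alpha-KO replicate 1, and -0.35, without replicate 2.

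Whether the course itself differed from WT was tested as the difference in the log2 change from day 0. To day 2, 5 of the 10 changed less upward, or more downward, in alpha-KO than in WT and 1 more upward (14.8% and 17.5% of all genes, 32.2% called), and in full-KO 5 and 2 (12.8% and 15.7%, 28.6% called). To day 4 the counts were 8 and 1 in alpha-KO (19.7% and 24.2%, 44% called) and 6 and 2 in full-KO (15.7% and 19.5%, 35.2% called). Jun was on the upward side in all 4, and Ier2 in both full-KO comparisons. The Fosb values of full-KO (-2.46 and -2.88) rested in part on day 0 replicate 1, without which they were -1.43 (adjusted p = 0.0656) and -1.83 (adjusted p = 0.0108).

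Scatter between replicates was uneven over the set. The SD of log2 CPM, pooled over days within a genotype, was 0.13 or less in all genotypes for Dusp1, Ier2 and Hspb1, and largest for Fosb, at 0.27 in WT, 0.82 in alpha-KO and 0.55 in full-KO. Fos stood at 0.26, 0.46 and 0.25, and Jun at 0.05, 0.24 and 0.19. The Jun values of the knockout lines came mostly from day 0. By day, its SD was 0.41, 0.05 and 0.03 in alpha-KO and 0.35, 0.17 and 0.02 in full-KO. The pooled SD was larger than in WT for 7 of the 10 genes in alpha-KO and 7 in full-KO, beside 46.8% and 42.5% of all genes tested. The median over the 10 was 0.134 in WT, 0.167 in alpha-KO and 0.176 in full-KO, beside 0.160, 0.159 and 0.144 over all genes. These SDs rest on 5 or 6 degrees of freedom and were not tested against each other. Fewer reads also widen them. For Fosb on day 4, counting alone would give an SD of 0.31 in alpha-KO and 0.13 in WT, where 0.97 and 0.26 were seen. Fitted over all libraries, the biological coefficient of variation was 0.257 for Fosb and 0.156 for Fos, at percentiles 84.4 and 70.1 of all genes, while the median of the 10, 0.0726, was close to that of all genes, 0.0755.

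**Figure D3:**
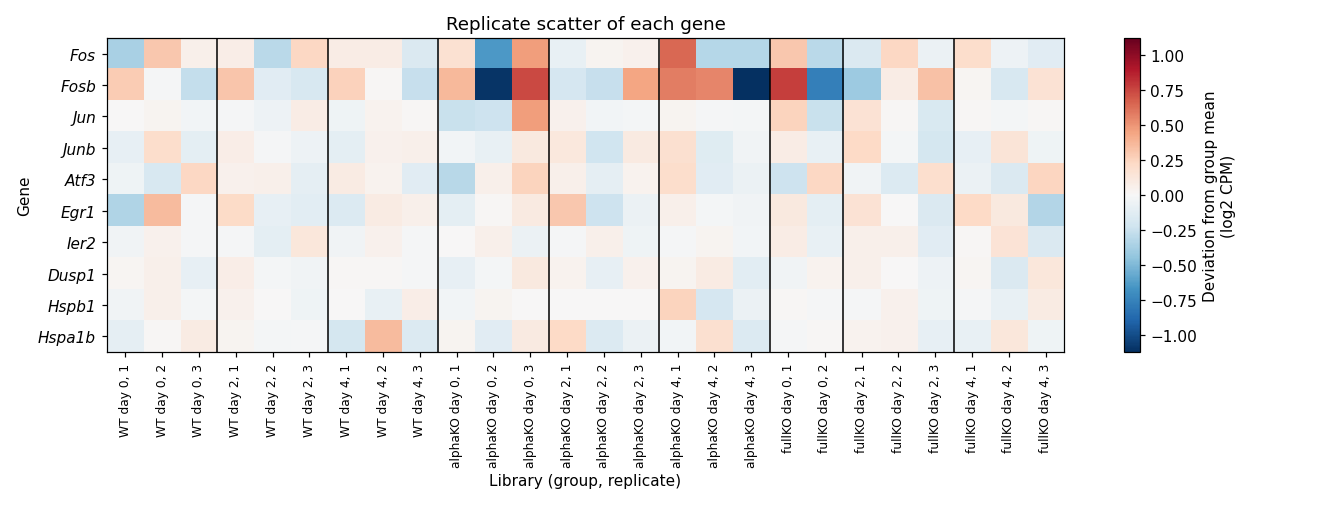
Deviation of each library from the mean of its group (log2 CPM, colour scale from blue, below, to red, above) for each gene; vertical lines separate groups. Fosb and Fos carry the strongest colours, down to -1.12 for Fosb in alpha-KO day 4 replicate 3, and the lower rows are pale.

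Some libraries deviated in several genes at once. Alpha-KO day 0 replicate 3 lay above its group mean in 8 of the 10 genes, by 0.74 for Fosb, 0.47 for Fos and 0.47 for Jun, and replicate 2 of that group lay below for Fosb (-1.10) and Fos (-0.64). Alpha-KO day 4 replicate 3 lay below its group mean in all 10, and replicate 1 above in 8. In WT the widest spread on day 0 was that of Egr1 and Fos, where replicate 1 was low (-0.34 and -0.36) and replicate 2 high (0.35 and 0.30). The fibroblast and smooth muscle sum of replicates 1 to 3 was 5595, 6928 and 6341 CPM in WT on day 0. In alpha-KO it was 5051, 5754 and 6413 on day 0 and 3678, 2885 and 3041 on day 4. The libraries named as high had the highest sum of their group. The low alpha-KO libraries did not have the lowest. The part of this in the scatter was not tested. Over the 26 libraries the deviations of Junb went with those of Egr1 (r = 0.68), those of Fos with Fosb (0.62) and Jun (0.51), and those of Atf3 against Ier2 (-0.66). In level, Junb went with Dusp1 (0.88), Egr1 (0.86) and Fos (0.84), and Jun against Ier2 (-0.89). These correlations describe points that share libraries, scaling and, for levels, groups.

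Beyond the set, the other AP-1 subunits and the feedback genes of the same response were also more often lower than higher in the knockout lines on days 2 and 4. Of 8 further AP-1 subunits tested, 7 were lower in full-KO on day 2 and none higher (median -0.93), and 5 were lower in alpha-KO and none higher (median -0.66), where 23.8% and 20.3% of all genes were lower, 23.8% and 19.9% were higher, and the medians over all genes were 0.02 and 0.01. On day 4 the counts were 4 lower and 1 higher in alpha-KO (median -1.07) and 6 and 0 in full-KO (median -0.87), beside 24% of all genes lower and 28.7% higher in alpha-KO, 24.5% and 25.1% in full-KO, and medians of 0.06 and 0.02. These day 4 shares of all genes stand beside the lists that follow too. Fosl2, a Fos-related partner of Jun, stood at 217 CPM in WT on day 4, 54.1 in alpha-KO and 67.6 in full-KO (-2.0 ± 0.08 and -1.68 ± 0.08), and full-KO was low on day 0 as well (-2.27 ± 0.18). Mafk and Maff, small Maf proteins, were lower in both lines on day 2, Mafk by -1.08 and -1.15.

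Of 15 other immediate-early transcription factors, 11 were lower and 2 higher in alpha-KO on day 4 (median -0.74) and 12 and 1 in full-KO (median -0.67). Nr4a1, an orphan nuclear receptor, was at -1.43 ± 0.13 in alpha-KO. Klf2, which also belongs to the naive pluripotency network, went the other way, at 30.8 CPM in alpha-KO and 59.5 in full-KO against 8.40 in WT. Of 24 further feedback and effector genes, 20 were lower and 3 higher in alpha-KO on day 4 (median -0.90) and 17 and 2 in full-KO (median -0.82). Among them Ccn2, a target of serum response factor and YAP, stood at 255 CPM in WT, 51.2 in alpha-KO and 78.2 in full-KO, and Ier3, a survival factor, at -2.19 ± 0.14 and -1.79 ± 0.13. Full-KO was already low on day 0, with 14 of the 24 feedback genes lower and 3 higher (17.7% and 16.2% of all genes). Of the 15 factors, 7 were lower and 2 higher. In alpha-KO the day 0 counts were 9 and 6, then 6 and 2 (20.9% and 17.7%). Most of the fibroblast and smooth muscle markers were also lower in both lines on day 0, by more in full-KO. Their part in these day 0 differences and in that of Fosl2 was not tested. The change from day 0 to day 4 in full-KO was below WT for 10 feedback genes and above for 5 (15.7% and 19.5%). For the factors it was 4 and 4. In alpha-KO these were 16 and 5, then 7 and 1 (19.7% and 24.2%).

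**Figure D4:**
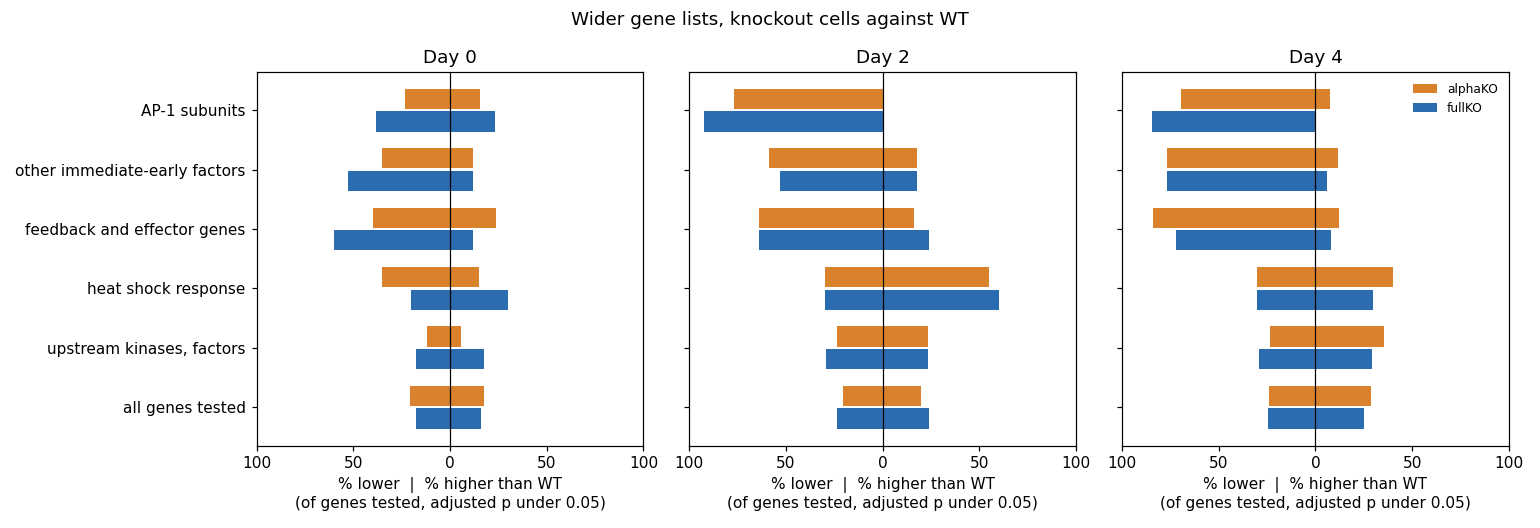
Share of the tested genes of 5 lists, and of all genes tested, that were lower (left) or higher (right) than WT at an adjusted p under 0.05, for alpha-KO (orange) and full-KO (blue) on each day. The lists include the 10 genes. The AP-1 bars reach furthest to the left on day 2, with 12 of 13 genes lower in full-KO, and the heat shock and upstream lists have bars on both sides.

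The heat shock list split. Of 18 heat shock genes other than Hspb1 and Hspa1b, 11 were higher and 6 lower in alpha-KO on day 2 (median 0.14) and 12 and 5 in full-KO (median 0.21), where 19.9% and 23.8% of all genes were higher and 20.3% and 23.8% lower. On day 4 the counts were 8 and 5 (median 0.07) and 6 and 5 (median 0.00), nearer to the shares and medians of all genes on that day. The mitochondrial chaperonin Hspe1 was among those higher on day 2 (0.91 ± 0.05 and 0.80 ± 0.05). The small heat shock proteins Cryab and Hspb8 were lower on day 4 with Hspb1, Cryab at -2.52 ± 0.13 and -2.14 ± 0.13 and Hspb8 at -1.99 ± 0.09 and -1.58 ± 0.09. Of 17 upstream kinases and transcription factors, 6 were higher and 4 lower in alpha-KO on day 4 (median 0.06) and 5 and 5 in full-KO (median -0.03), close to the shares of all genes. Creb1, which binds the cAMP response element, was among the higher ones (0.62 ± 0.06 and 0.52 ± 0.06), and Mrtfa, a cofactor of serum response factor, among the lower (-0.41 ± 0.06 and -0.45 ± 0.06).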

How the data were processed

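Stranded mRNA libraries of KH2 cells (26) were sequenced. The authors deposited raw read counts per gene. Their processing notes, as the submitters list them, name the build mm10, the aligner STAR 2.7.1a and FastQC. The sources used here do not give the counting tool, its strand setting or the annotation. Of 55471 genes, 55230 matched GENCODE M21.

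Counts were fitted with edgeR 4.0.16 in R 4.3.3: filterByExpr left 18412 genes, libraries were scaled by TMM, and a quasi-likelihood model gave each of 9 groups a mean (17 residual degrees of freedom), for 16 comparisons, with Benjamini-Hochberg adjustment over all genes. Log2 CPM used a prior count of 2, and RPKM the exon length of GENCODE M21. Errors after log2 fold changes are SE. The model was checked on simulated counts in which few genes changed, and in a single group. Far more genes changed here, so that check does not give the error rates of these data. Replicate numbers did not pair libraries (100 same-number pairs, r from -0.04 to 0.05). The p-values reflect only how far these libraries scatter, possibly for technical reasons, since the labels name no separate cultures.

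All 10 genes are described in every comparison; list genes named are up to 3 called ones per list and comparison with the largest change and at least 5 CPM in a group. Lumican, decorin, Prdx2, Ergic1, Junos, Hspa1a and Hsp25-ps1 were named after their values were seen. The genes and the 9 lists, namely AP-1 subunits, other immediate-early factors, feedback and effector genes, heat shock response, upstream factors, and stem cell, fibroblast and smooth muscle, primitive endoderm and neuron markers, were chosen with earlier results of these data known. A gene that the rule for similar patterns takes is not reported here. Alternatives were DESeq2 1.42.0, RLE scaling, other filters and prior count, a replicate block, only the groups compared, and each library left out. Figures were drawn with matplotlib.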

Additional observations from a re-analysis of the deposited data

Results flagged for a closer look

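These values are differences between a knockout line and WT in the log2 change from day 0, each called by the interaction test in edgeR (adjusted p under 0.05); both lines share the WT libraries. For alpha-KO at day 2 they were -1.59 for Fos, -2.31 for Fosb, 0.68 for Jun, -1.48 for Junb, -2.27 for Egr1 and -2.57 for Atf3. For alpha-KO at day 4 they were -2.40 for Fos, -2.47 for Fosb, 0.37 for Jun, -1.92 for Junb, -2.84 for Egr1, -0.21 for Ier2, -3.26 for Atf3, -1.36 for Dusp1 and -2.16 for Hspb1. For full-KO at day 2 they were -1.42 for Fos, -2.46 for Fosb, 0.87 for Jun, -0.56 for Junb, 0.25 for Ier2, -3.28 for Atf3 and -0.39 for Hspb1. For full-KO at day 4 they were -1.78 for Fos, -2.88 for Fosb, 1.31 for Jun, -0.72 for Junb, 0.31 for Ier2, -2.75 for Atf3, -0.95 for Dusp1 and -2.0 for Hspb1. The Ier2 values are the smallest, and each lost its call in at least 1 fit that left out a library.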

How the results depend on the processing

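Of 160 gene and comparison values, 117 were called. Over 1556 alternative values of these, 1 changed direction (Fosb in full-KO against WT on day 0, -0.11 without full-KO day 0 replicate 1), 12 lost the call under another setting and 52 without a library; the cause was not tested. Among alternatives of the values not called, 23 were called, 8 under another setting and 15 without a library. Under the other settings, the number of the 10 genes called kept within 1.5 times, except alpha-KO against WT on day 0 with no filter (5 in place of 3). Leaving out a library took the number outside that range too. It gave 5 to 8 called for WT day 2 against day 0 (8 with all, 5 without WT day 0 replicate 3 or WT day 2 replicate 1). For alpha-KO against full-KO on day 2 it gave 3 to 6 (5 with all, 3 without full-KO day 2 replicate 2). The numbers do not pair the samples; with the replicate block, 7 in place of 8 were called for full-KO against WT on day 0, Fosb being lost (adjusted p = 0.0506), no other call was lost, and Hspa1b there stood at -0.01 in place of 0.01.

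Uncalled values near 0 changed sign as follows, each with its range over fits that leave out a library. Hspa1b in full-KO against WT on day 0 ran from -0.04 (without WT day 0 replicate 1; -0.01 without full-KO replicate 1) to 0.06, and was -0.01 with RLE scaling and DESeq2. On day 4 it ran from -0.25 to 0.05, and its difference in change from day 0 from -0.26 to 0.04, both highest without WT day 4 replicate 2. The Hspa1b difference in change to day 2 in alpha-KO ran from -0.09 to 0.11 (-0.09, -0.04 and -0.01 without alpha-KO day 2 replicate 1, alpha-KO day 0 replicate 2 and WT day 0 replicate 3), and alpha-KO against full-KO on day 2 from -0.01 to 0.19. Fos in WT from day 0 to 2 ran from -0.07 (WT day 0 replicate 1; -0.02 without WT day 2 replicate 3) to 0.27. Ier2 in full-KO against WT rose to 0.01 on day 2 without WT replicate 3, and ran from -0.07 (full-KO replicate 2; -0.01 without WT replicate 1) to 0.08 on day 4. On day 0, Fosb in alpha-KO against WT ran from -0.06 (alpha-KO replicate 3) to 0.72 and Fos in full-KO against WT from -0.07 (full-KO replicate 1) to 0.56. In alpha-KO against full-KO on day 0, Fosb ran from -1.15 to 0.46, Atf3 from -0.13 to 0.31 (-0.08 without alpha-KO replicate 3) and Fos was lowest at -0.17, without alpha-KO replicate 3 or full-KO replicate 2; on day 2 Fos ran from -0.15 to 0.05, and on day 4 Fosb from -0.43 to 0.20 (highest without alpha-KO replicate 3). With 2 or 3 libraries a group and 10 reads at the lowest, differences in Fosb are the least precise.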

Other observations

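Across the 26 libraries, the mean z score of the 10 genes followed Pkp2, a desmosomal plakophilin, most closely of 10873 other genes (r = 0.946), and among the next were Myo1c, an unconventional myosin (0.936), Tbc1d2 (0.936), Npepl1 (0.933) and Cavin1, a caveolar coat protein (0.922). With group means removed, Igfbp3, an IGF-binding protein, came first (0.859), followed by Phlda1 (0.835), Ube2h (0.835), Ecm1 (0.825), Lrrc3 (0.821) and Bbc3, the apoptosis gene Puma (0.817). These are descriptions over libraries that share groups and scaling. The mean also covers genes that ran against each other in level, such as Jun and Ier2 (r = -0.89) and Atf3 and Ier2 (-0.87). Others ran together, such as Junb and Dusp1 (0.88).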
